A study of Canis lupus familiaris with 6 samples.

Results

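The genes described are 10 genes of the cornified envelope and of terminal differentiation in the epidermis: IVL, TGM1, TGM3, TGM5, CASP14, CDSN, SBSN, POF1B, EVPL and PPL. They were taken by symbol from a gene table of 35993 genes, and all 10 were found there. CPEK cells, a line of canine epidermal keratinocytes of wild-type genotype, were grown in medium with serum to near confluence. The 3 dCAMP libraries came from cells exposed directly to cold atmospheric microwave plasma for 30 s, and the 3 gas libraries came from cells given the gas alone. In both groups fresh medium was given after 15 min and RNA was collected 24 h after that, so all libraries share the line, the serum and the handling. CPEK is 1 line, no culture at the air surface is described, and the labels do not say that the 3 libraries of a group came from separate cultures. The p-values below therefore measure only the spread between these libraries, which may be technical.

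Counts assigned to genes totalled 43084921 to 54082634 per library. The gas libraries were far less alike than the dCAMP libraries. Across the 14708 genes tested, the first principal component took 84.2% of the variance and placed gas 1 at -78.35, gas 2 at -19.66 and gas 3 at 18.99, beside 23.78 to 27.75 for the dCAMP libraries. Gas 3 correlated with the dCAMP libraries at r of 0.9952 to 0.9962, gas 1 only at 0.9485 to 0.9525, and the reason was not tested. Because of this spread, the members' comparisons are given with their intervals and, where it matters, without gas 1 or gas 3.

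As a keratinocyte leaves the basal layer, it replaces its plasma membrane from the inside with the cornified envelope, a sheet of cross-linked protein. Envoplakin (EVPL) and periplakin (PPL) form the first scaffold together with involucrin (IVL), and transglutaminases (TGM1, TGM3 and TGM5) join these proteins covalently. Late products follow in the upper layers, among them corneodesmosin (CDSN), the adhesive protein of the corneodesmosome, and CASP14, the caspase that takes part in filaggrin breakdown. Suprabasin (SBSN) is a secreted protein of the suprabasal layers, and POF1B is an actin-binding protein of epithelial junctions.

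Among the 10 genes the line expressed the early scaffold proteins most strongly, and CASP14, TGM3, POF1B and TGM5 weakly. Levels between genes are compared here as FPKM, reads scaled to transcript length and to mapped reads, as the authors deposited them. IVL had 1055, 653 and 450 FPKM in gas libraries 1, 2 and 3 and 859, 617 and 775 FPKM in dCAMP libraries 1, 2 and 3. Its mean over the 6 libraries, 734.8 FPKM, was rank 111 among the 14708 genes tested. PPL (55.1 to 81.3 FPKM) and EVPL (54.3 to 75.6 FPKM) followed at ranks 1134 and 1159.

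The order of the remaining members was mostly the same in each library. SBSN lay at 9.24 to 27.4 FPKM, CDSN at 3.92 to 12.8 and TGM1 at 1.85 to 9.88. The other 4 genes were near or below 1 FPKM, with CASP14 at 0.557 to 1.22, TGM3 at 0.0993 to 0.702, POF1B at 0.0488 to 0.326 and TGM5 at 0 to 0.0654. Each step from IVL down to CASP14 held in 6 of 6 libraries except that between PPL and EVPL, which held in 4 of 6 with a ratio of 0.970 to 1.08, so these neighbours did not differ beyond their spread. CASP14 was above TGM3 in 5 libraries, TGM3 above POF1B in 4 and POF1B above TGM5 in 5. In the gas control 6 of the 10 genes had a mean of at least 1 FPKM, and in the dCAMP libraries 7 did, the added gene being CASP14.

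**Figure D1:**
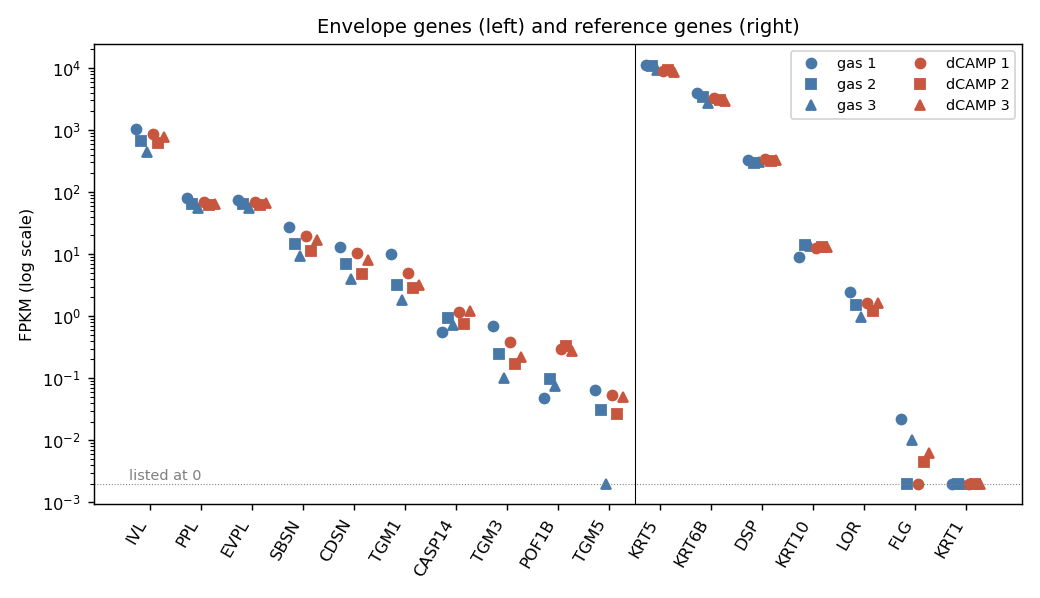
FPKM, on a log axis, of the 10 genes (left) and of reference genes of other layers (right) in each library, gas in blue and dCAMP in red, with a symbol per replicate and values of 0 drawn on the dotted line. IVL lies at 450 to 1055 FPKM in every library, while CASP14, TGM3, POF1B and TGM5 lie near or below 1 FPKM.

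Markers of the other epidermal layers placed these levels. The basal keratins KRT5 and KRT14, which pair into the filaments of the basal layer, were the 2 most abundant of the genes tested by mean FPKM, at 8483 to 11195 and 7734 to 11139 FPKM. KRT5 exceeded IVL by a factor of 10.5 to 20.2. The keratins of activated keratinocytes were also abundant, with KRT6B at 2680 to 3964 FPKM and KRT16 at 2103 to 3650 FPKM. KRT17 lay at 1548 to 2208 FPKM and KRT6A at 1391 to 2288 FPKM. The summed FPKM of the 10 members came to 2.98% to 5.42% of the summed FPKM of 11 basal markers, and IVL alone made up 78.2% to 83.5% of the members' sum. All 11 basal markers had a mean of at least 1 FPKM in the gas control, among them TP63, the master regulator of stratified epithelia, at 35.1 to 47.8 FPKM.

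Above the basal layer the picture was uneven. KRT1, the type II keratin of the spinous layer, had 0 counts in all 6 libraries, which allows up to 3 counts in each, whereas its partner KRT10 lay at 9.06 to 14.1 FPKM. Filaggrin (FLG), the major protein of keratohyalin granules, had 11, 0 and 6 counts after gas and 0, 2 and 3 after dCAMP. Loricrin (LOR), the bulk protein of the mature envelope, had 0.97 to 2.47 FPKM, and IVL exceeded it by a factor of 427.7 to 523.5. Some other genes of these layers were well expressed. KRTDAP, a secreted protein of differentiating keratinocytes, lay at 52.0 to 170.6 FPKM and cornifelin (CNFN) at 41.5 to 144.1. DSG1, the desmoglein of the suprabasal layers, lay at 16.4 to 51.1 FPKM and cornulin (CRNN) at 8.74 to 32.3. Of the 6 spinous markers (KRT1, KRT10, KRT2, DSG1, DSC1 and KRTDAP), 3 had a mean of at least 1 FPKM in the gas control. DSC1 had only 0.060 to 0.141 FPKM and KRT2 at most 0.054 FPKM. The protease KLK5, which opens corneodesmosomes, had 0 counts in every library, and KLK7 had 6 counts in dCAMP 2 and 0 elsewhere. These zeros refer to the deposited gene models and cover counting error only.

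The keratinocyte label held against the markers of other cells. DCN, LUM and PDGFRB of fibroblasts, TYR, TYRP1 and DCT of melanocytes, PTPRC and CD3E of immune cells and PECAM1 of endothelium had 0 counts in all libraries. Other markers of the same lists were detected at low levels. Among them were VWF (1.11 to 1.83 FPKM) and KDR (0.752 to 1.28 FPKM) of endothelium and MITF of melanocytes (0.940 to 1.65 FPKM). COL3A1 of fibroblasts lay at 0.556 to 0.701 FPKM and CD14 of immune cells at 0.164 to 0.608 FPKM. Summed levels were 0.839 to 0.972 FPKM for 7 fibroblast markers, 1.09 to 2.30 for 6 melanocyte markers, 0.164 to 0.802 for 5 immune markers and 1.997 to 3.13 for 4 endothelial markers. KRT7, KRT8, KRT18 and KRT19, keratins of simple epithelia, were present at 9.9 to 30 FPKM each.

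The question put to the treatment was whether the 10 genes differed between dCAMP and gas. Counts were compared by edgeR's quasi-likelihood test, and values of single genes are in CPM, that is, counts relative to the TMM-normalized library size. Of the 10 genes 9 passed the filter on low counts, and TGM5 did not. With Benjamini-Hochberg adjustment over all 14708 genes, 0 of the 9 had an adjusted p under 0.05, as did 0% of all genes tested, while 1 of the 9 had an unadjusted p under 0.05, against 20.7% of all genes. Log2 fold changes of dCAMP over gas were above 0 for 5 members and below 0 for 4, with a median of 0.0023, beside a median of 0.0269 over all genes tested. In bulk RNA, fewer cells expressing a gene and less of its RNA per cell cannot be told apart.

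The scaffold proteins EVPL and PPL gave the tightest comparisons. EVPL, on chromosome 9 from 4610834 to 4630704 in CanFam3.1, stood at 589.9, 525.5 and 440.7 CPM after gas and at 552.5, 489.2 and 528.4 CPM after dCAMP. In these gene totals the groups overlapped fully, with every dCAMP value inside the gas range. The log2 fold change was 0.01 with a standard error of 0.12 and a 95% interval of -0.28 to 0.31 (edgeR adjusted p = 0.948). PPL, on chromosome 6 from 36498562 to 36542101, stood at 556.8, 452.8 and 391.6 CPM against 492.7, 436.6 and 448.7 CPM. Here too the dCAMP values lay inside the gas range, and the log2 fold change was -0.02 with an interval of -0.36 to 0.31 (edgeR adjusted p = 0.914). For this pair a change of 2-fold in either direction lay outside the interval.

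IVL is the glutamine-rich precursor that covers the inner face of the membrane when the envelope is first laid down. The gene lies on chromosome 17 from 61714470 to 61716961 and stood at 1439, 917 and 637 CPM after gas and at 1206, 856 and 1082 CPM after dCAMP. The gas libraries differed among themselves by 2.26-fold and the dCAMP libraries by 1.41-fold. The means were 997.5 ± 407.3 CPM and 1048 ± 177.7 CPM (SD, n = 3 each), and the groups overlapped. This gave a log2 fold change of 0.07 with a standard error of 0.30 and an interval of -0.65 to 0.79 (edgeR adjusted p = 0.882).

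SBSN, on chromosome 1 from 117130460 to 117138427, repeated the pattern at a lower level. Its values were 160.1, 87.1 and 56.0 CPM after gas and 118.7, 66.6 and 99.3 CPM after dCAMP. Gas 1 was the highest library and gas 3 the lowest, with the dCAMP libraries between them. Its log2 fold change was -0.09 with an interval of -1.07 to 0.89 (edgeR adjusted p = 0.888), an interval that takes in a 2-fold lower level in dCAMP.

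Of the 3 transglutaminases only TGM1, the membrane-bound enzyme of the epidermis, exceeded 1 FPKM. TGM1, on chromosome 8 from 4229410 to 4244768, stood at 35.1, 16.8 and 10.2 CPM after gas and at 22.7, 14.8 and 16.3 CPM after dCAMP. Its log2 fold change was -0.21 with an interval of -1.29 to 0.87 (edgeR adjusted p = 0.766). The locus overlaps RABGGTA and an uncharacterized locus, and TGM3, TGM5, SBSN and PPL each overlap 1 uncharacterized locus as well. How reads of overlapping genes were assigned is not given in the sources used here.

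TGM3, a transglutaminase that is activated by proteolysis, lies on chromosome 24 from 18753638 to 18793780. Its counts were 94, 39 and 16 after gas and 52, 22 and 30 after dCAMP. The gas values alone spanned 6.73-fold in CPM, the widest range of the 9 genes tested, and enclosed the dCAMP values. A log2 fold change of -0.39 was fitted with an interval of -1.98 to 1.21 (edgeR adjusted p = 0.699). TGM5, on chromosome 30 from 10097388 to 10123139, received 11, 6 and 0 counts against 9, 4 and 9 counts. The 0 in gas 3 allows up to 3 counts, and at this depth no difference in TGM5 was detectable.

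CDSN and CASP14 are both late genes. CDSN, on chromosome 12 from 819488 to 824015, stood at 35.5, 19.8 and 11.3 CPM after gas and at 30.0, 13.6 and 23.2 CPM after dCAMP. Its group means were 22.2 ± 12.3 and 22.2 ± 8.23 CPM (SD, n = 3 each), and its log2 fold change was 0.002 with an interval of -1.11 to 1.12 (edgeR adjusted p = 0.997). The equal means thus came with an interval wider than 2-fold on each side. CASP14, on chromosome 20 from 47060351 to 47067169, stood at 1.84, 3.17 and 2.41 CPM against 3.97, 2.47 and 4.12 CPM. dCAMP 2 lay inside the gas range and the other two dCAMP libraries above it. For CASP14 the log2 fold change was 0.50 with a standard error of 0.28 and an interval of -0.17 to 1.17 (edgeR adjusted p = 0.298).

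POF1B was the only member whose groups did not overlap, which held for 39.9% of all genes tested. The gene lies on chromosome X from 66233225 to 66342297 and received 10, 23 and 18 counts after gas and 59, 61 and 54 after dCAMP. In CPM these were 0.216, 0.437 and 0.339 against 1.27, 1.42 and 1.20, so the lowest dCAMP library stood well above the highest gas library. The difference on the log2 scale was 1.84 with a standard error of 0.27, a fold of 3.57 with a 95% interval of 2.27 to 5.64. Alone among the members it met the rule of a 2-fold change together with p under 0.05 before adjustment, where 1.09% of all genes tested met that rule and 0.959% met it with higher values in dCAMP. Its edgeR adjusted p was 0.221, above the threshold of 0.05.

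The level of POF1B stayed below 0.33 FPKM in every library, also after dCAMP. The gene is among those the study selected from these same samples, so its direction is not independent evidence. By other methods its adjusted p passed, with 1.4e-04 from DESeq2 (log2 fold change 1.95) and 2.33e-04 from limma's voom with sample weights (1.55), and edgeR gave 0.0219 without gas 3. Of all genes tested in each case, 1.07% passed with DESeq2, 60.8% with voom and 33.1% without gas 3. Some marker sums of other cells were also higher in all dCAMP libraries than in all gas libraries. The 6 melanocyte markers summed to 1.09 to 1.72 FPKM in gas and 1.87 to 2.30 in dCAMP, with TYR, TYRP1 and DCT at 0 and most of the sum from MITF. MLANA of the same list had 4, 0 and 0 counts after gas and 13, 16 and 11 after dCAMP, and like POF1B it met the 2-fold rule. The 4 endothelial markers summed to 1.997 to 2.39 and 2.53 to 3.13 FPKM, with PECAM1 at 0 and most of the sum from VWF and KDR. Sums of the 11 basal markers were lower in dCAMP (17961 to 19133 FPKM) than in gas (19300 to 24338 FPKM), as were those of the 4 keratins of simple epithelia (55.5 to 60.1 against 63.0 to 90.1 FPKM). The basal sum is nearly all KRT5 and KRT14, and in the same list DST (log2 fold change 0.84) and the integrin ITGA6 (0.35) were higher in every dCAMP library than in any gas library. The part of these levels in the POF1B difference was not tested.

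**Figure D2:**
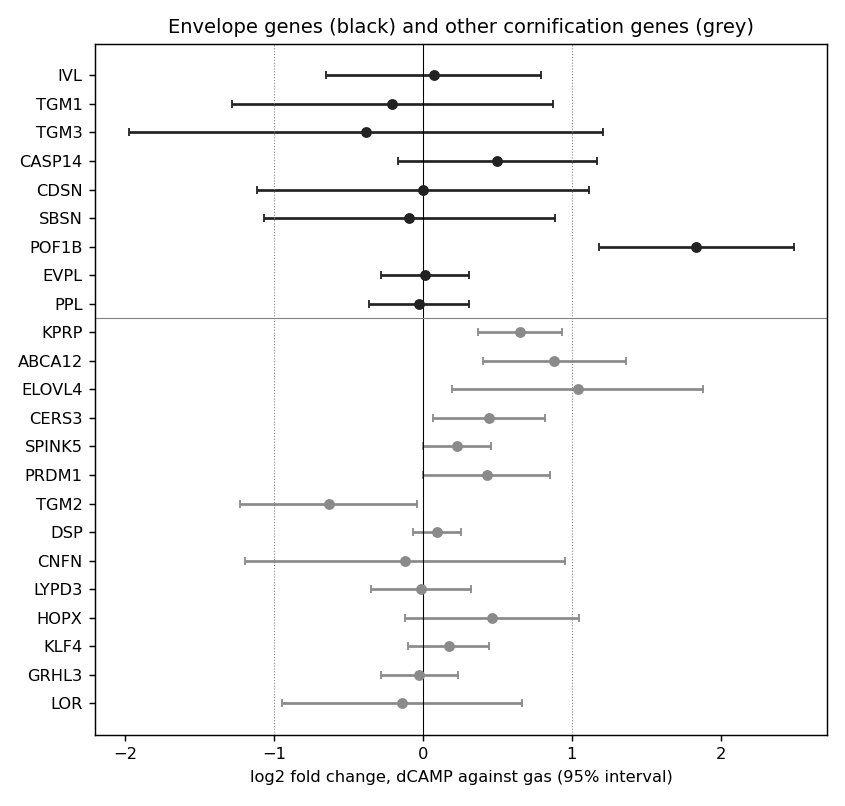
Log2 fold change of dCAMP over gas for the 9 members tested (black) and for the named genes of the cornification list (grey), with 95% intervals from edgeR and dotted lines at 2-fold. POF1B, at 1.84 with its interval above 0, is the only member whose interval leaves out 0. Those of TGM3, CDSN, TGM1, SBSN and CASP14 take in 0 and reach beyond 2-fold on at least 1 side.

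The libraries themselves ordered most members in nearly the same way. By gene totals, IVL, CDSN, SBSN and EVPL were highest in gas 1, then dCAMP 1, dCAMP 3, gas 2, dCAMP 2 and gas 3. TGM1, TGM3 and PPL had the same order except that gas 2 and dCAMP 3 changed places. One or the other order was found in 7 of the 9 members (77.8%), in 10 of 36 other cornification genes (27.8%), in 0 of 11 basal markers and in 154 of 14708 genes tested (1.05%). The orders were read from the members after their values were seen, so these shares are a description.

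The 10 other cornification genes in either order were LOR, CRNN, CNFN, TGM6, KLK14, ALOX12B, SDR9C7, CALML5, LYPD3 and DMKN. KRTDAP and KRT16, a keratin of activated keratinocytes, had it too. Pairwise Pearson correlations of log2 CPM among the 7 members lay between 0.930 and 0.9999 over the 6 libraries. They lay at 0.923 or above without gas 1, and between 0.937 and 0.9999 after the group means were removed. The 7 members were grouped by their order in these same libraries, so high correlations among them follow in part from that choice. The points share their libraries, and the correlations describe these 6 libraries only.

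CASP14 and POF1B had other orders. CASP14 was lowest in gas 1 and highest in dCAMP 3, and POF1B was lowest in gas 1 and highest in dCAMP 2. With them, the 36 pairwise correlations of the 9 genes ran from -0.262 to 0.9999, and the lowest was 0.415 without gas 1. Without gas 1, CASP14 correlated with CDSN at 0.947, SBSN at 0.946, IVL at 0.895 and EVPL at 0.862. With TGM3, TGM1 and PPL it correlated at 0.799, 0.774 and 0.771. Over the 6 libraries its values with these genes were -0.221 to 0.132. The correlations of POF1B with the same genes also rose, from -0.262 to 0.036 over the 6 libraries to 0.456 to 0.682 without gas 1. As deviations from each gene's mean of the log2 of CPM plus 0.5, the median member was 0.540 in gas 1, -0.067 in gas 2 and -0.636 in gas 3, and 0.333, -0.209 and 0.106 in dCAMP 1, 2 and 3. The other 36 cornification genes had medians of 0.370, -0.081 and -0.371 in the gas libraries, over genes that went opposite ways. Of the 36, 15 (41.7%) were highest in gas 1 and lowest in gas 3, against 6.4% of all genes tested. ABCA12 instead had 31.0, 41.0 and 51.1 CPM in gas 1, 2 and 3, CERS3 78.7, 103.4 and 118.3, and ELOVL4 7.02, 12.2 and 19.1. GRHL1 of the list and the spinous keratin KRT10 correlated with IVL at -0.569 and -0.749. The 4 keratins of activated keratinocytes had medians of 0.316, 0.062 and -0.259, with all 4 highest in gas 1 and lowest in gas 3. The 11 basal markers had medians of -0.081 to 0.117 across the libraries, over genes that went opposite ways. KRT5 and KRT14 were highest in gas 1, whereas DST, the hemidesmosomal plakin, had 202.7, 391.1 and 587.1 CPM in gas 1, 2 and 3 and 696.2 to 712.3 CPM in the dCAMP libraries. Gas 1 and gas 3 were thus the 2 extremes for 7 of the 9 members tested, with the dCAMP libraries between them. For CASP14 and POF1B they were not.

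**Figure D3:**
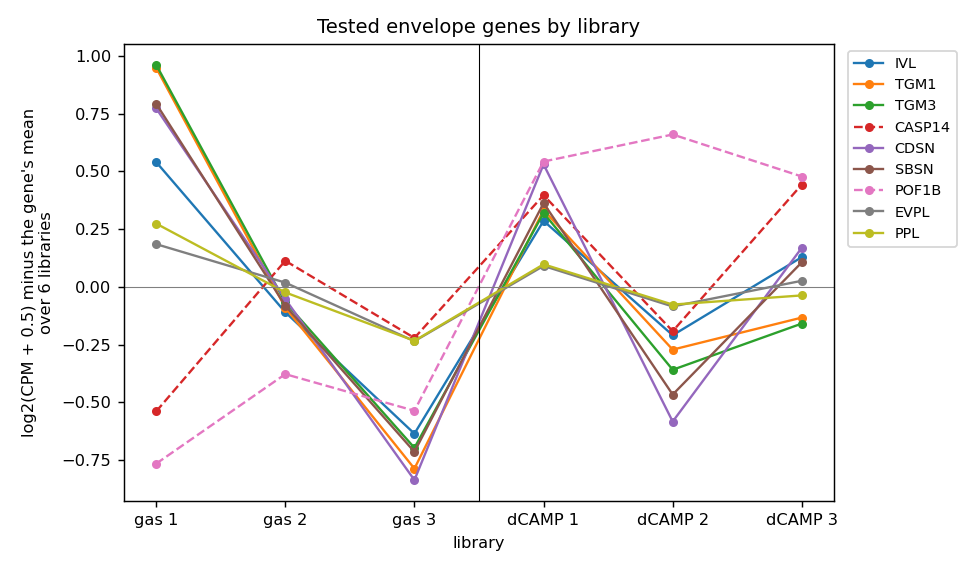
Log2 of CPM plus 0.5 of each member relative to its own mean over the 6 libraries, one line per gene, by library. The lines of 7 members run together, high in gas 1 and low in gas 3, while CASP14 and POF1B are lowest in gas 1.

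Leaving out 1 library moved those 7 members together. Without gas 1 all 9 tested members were above 0, and without gas 3 only 2 of the 9 were. The log2 fold change of IVL ran from -0.22 without gas 3 to 0.41 without gas 1, and that of TGM1 from -0.58 to 0.39. For TGM3 it ran from -0.86 to 0.50, for CDSN from -0.36 to 0.49 and for SBSN from -0.43 to 0.38. No direction can be given for these genes. CASP14 stayed at 0.31 to 0.69 with edgeR adjusted p of 0.320 to 0.559, and POF1B stayed at 1.62 to 2.03 with edgeR adjusted p of 0.0219 to 0.502.

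**Figure D4:**
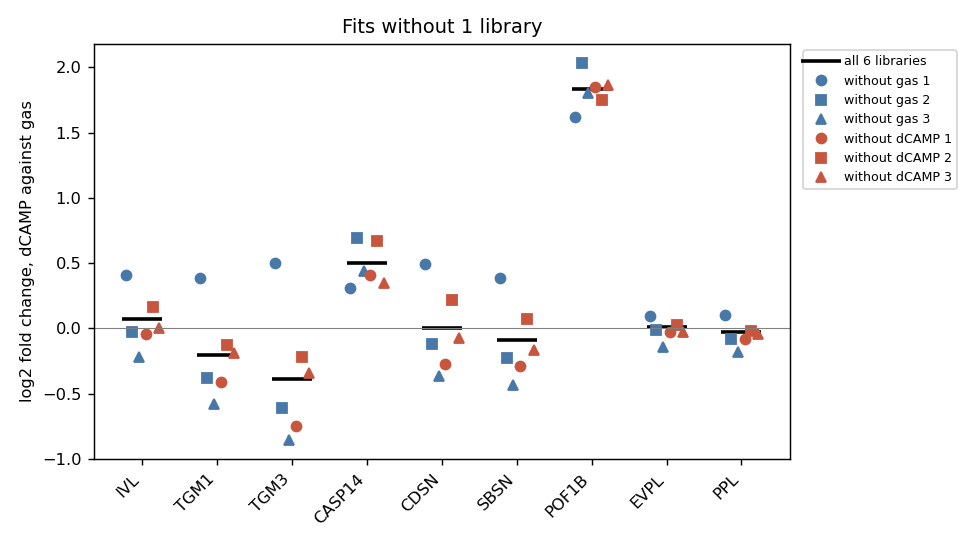
Log2 fold change of dCAMP over gas for each tested member with all libraries (black bar) and with each library left out in turn (symbols). The points of the 7 members that share a library order lie on both sides of 0, highest without gas 1 and lowest without gas 3, and those of POF1B stay between 1.62 and 2.03.

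The other genes of the cornification program were taken from a list. Of its 46 genes 40 were found in the table and 36 were tested, 23 of the 40 with a mean of at least 1 FPKM in the gas control. By edgeR with adjustment 0 of the 36 passed, against 0% of all genes tested, 17 were above 0 and 19 below, and the median log2 fold change was -0.01. An unadjusted p under 0.05 was reached by 7 genes, 6 with higher and 1 with lower values in dCAMP, against 20.7% of all genes tested. DESeq2 gave an adjusted p under 0.05 for 2 of the genes, where it called 1.07% of all genes, and voom for 13, where it called 60.8%.

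The rule of 2-fold with p under 0.05 before adjustment was met by 1 gene of the list, against 1.09% of all genes tested. This was ELOVL4, the elongase of the very long fatty acids of skin ceramides. Its values were 7.02, 12.2 and 19.1 CPM after gas and 30.0, 23.0 and 25.9 CPM after dCAMP, and the groups did not overlap. On the log2 scale the fold change was 1.04 with a standard error of 0.35 and an interval of 0.20 to 1.88 (edgeR adjusted p = 0.222). The count of such genes was 0 without gas 1, without gas 2 or without dCAMP 1, and 2 without gas 3.

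The other genes with an unadjusted p under 0.05 were named after their values were seen. Among them were ABCA12, the lipid transporter of lamellar granules, at a log2 fold change of 0.88, and KPRP at 0.65. The rest were the ceramide synthase CERS3 (0.44), the transcription factor PRDM1 (0.43), the protease inhibitor SPINK5 (0.23) and the ubiquitous transglutaminase TGM2 (-0.63). None of these 6 reached an adjusted p of 0.05 by edgeR. The most abundant genes of the list by mean FPKM were SPINK5 at 321, the desmosomal plaque protein desmoplakin (DSP) at 318, HOPX at 110.7, LYPD3 at 109.4 and CNFN at 83.3. The transcription factors of differentiation KLF4 and GRHL3 averaged 18.5 and 37.3 FPKM. DSG1 had 16.4, 20.5 and 32.3 FPKM after gas and 51.1, 44.5 and 47.2 FPKM after dCAMP. Its log2 fold change was 0.95 with an interval of 0.38 to 1.52 (edgeR adjusted p = 0.221).

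The transcript table showed that part of the spread among libraries lay in single transcript models. TGM1 has 4 models of 2453 to 4885 bases. The shortest, of 2453 bases, took 52.5%, 6.31% and 1.66% of the TGM1 counts after gas and 11.5%, 5.21% and 8.81% after dCAMP. The remaining TGM1 models together had 16.7, 15.8 and 10.0 CPM in gas and 20.1, 14.0 and 14.9 CPM in dCAMP. Without the 2453-base model, gas 1 was thus no longer the highest library for TGM1.

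EVPL and IVL also differed in their models. The 6894-base model of EVPL held 10.2% of its counts in gas 1 and 0.218% to 1.23% in the other libraries. Without that model EVPL had 530.0, 521.3 and 439.8 CPM in gas and 545.7, 486.4 and 523.5 CPM in dCAMP. Gas 1 was then no longer its highest library, and dCAMP 1 lay above the gas range. IVL has a pair of models of 1225 and 1228 bases, nearly equal in length. The longer one held 96.1%, 96.3% and 96.3% of the counts in the gas libraries and 96.6% in dCAMP 3, but 27.4% in dCAMP 1 and 24.4% in dCAMP 2. The gene total of IVL does not depend on this division. How the counts were divided between models this alike is not given in the sources used here, and the part of that step was not tested.

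**Figure D5:**
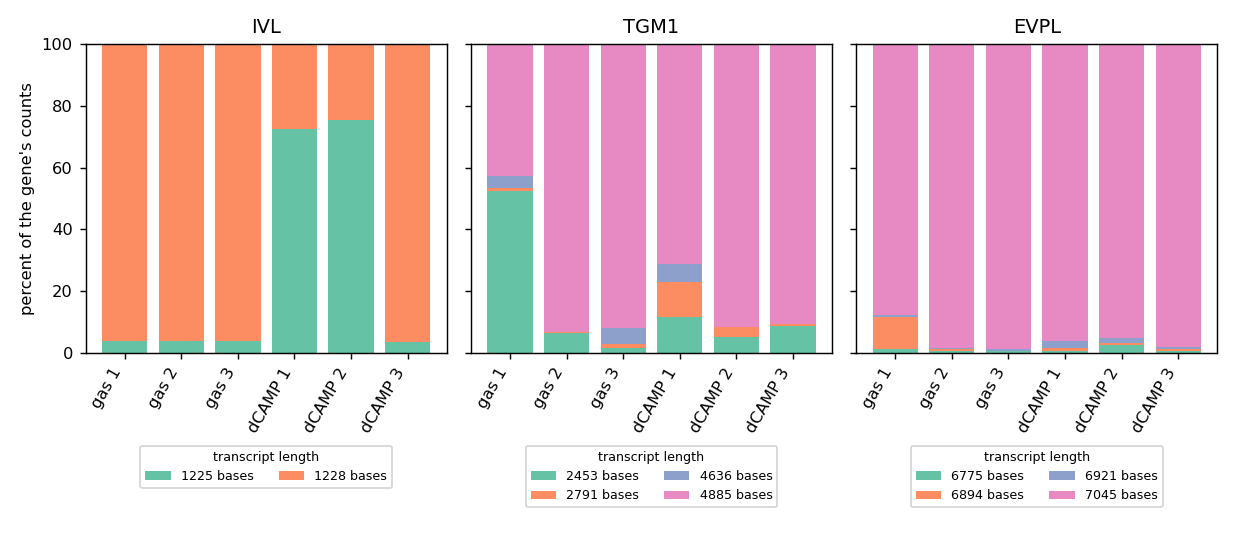
Share of a gene's counts, in percent, held by each transcript model of IVL, TGM1 and EVPL in the 6 libraries. The 2453-base TGM1 model holds 52.5% in gas 1 and at most 11.5% elsewhere, and the 1228-base IVL model holds over 96% in 4 libraries but 27.4% and 24.4% in dCAMP 1 and 2.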

How the data were processed

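The authors made stranded mRNA libraries, trimmed the reads with Trimmomatic 0.38 after FastQC 0.11.7, mapped them to CanFam3.1 with HISAT2 2.1.0 and summarized known transcripts with StringTie 2.1.3b, per the labels and the study's methods. The annotation release and the use of strand in counting are not given in the sources used here. The read counts the authors deposited are whole and not normalized, for 35993 genes and 87504 transcripts. The FPKM values they deposited are scaled to mapped reads and transcript length. Left unused were the 12 TPM columns. The study itself compared groups with DESeq2.

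Total counts were 43084921 to 54082634 per library. A count of 0 allows up to 3 counts, for counting error only.

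Here counts were tested in R 4.3.3 with edgeR 4.0.16 (TMM, filterByExpr, quasi-likelihood test, prior count 2, Benjamini-Hochberg adjustment over 14708 genes). Standard errors were the absolute log2 fold change over the root of F, and 95% intervals from the t distribution. The alternatives used DESeq2 1.42.0, limma 3.58.1 (voom with sample weights, and log2 of FPKM plus 1 or plus 0.1), RLE factors, other filters, edgeR's default prior count, the replicate number as a block, and leaving out each library. The steps were tested on simulated data.

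The members, gene lists and tests were chosen with earlier results of these data known. The text names all 10 members and, of the cornification list, the genes called, the 5 with the highest mean FPKM and a set of named genes of the pathway (FLG, LOR, KLK5, KLK7, DSP, TGM2, KLF4, GRHL3), with the marker genes of the layers and of other cells.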

Additional observations from a re-analysis of the deposited data

How the results depend on the processing

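There were 3 libraries a group, with a wide spread among the gas libraries. By edgeR 0 of the 14708 genes tested were called, the smallest adjusted p being 0.136, and POF1B at a log2 fold change of 1.84 was not called either. The shallow counts of TGM5, POF1B and TGM3 add counting error. Of 135 log2 fold changes of members under the alternatives, 106 kept direction and side of the threshold, 26 took the opposite direction and 3, all of POF1B, newly passed it. The cause of the reversals was not tested. CDSN turned to -0.0133 with RLE factors, -0.0197 with DESeq2, -0.0051 without a filter and -0.0291 with at least 10 counts in every library, and EVPL to -0.0032 with DESeq2 and -0.0129 with at least 10 counts. With voom TGM1 was 0.11, TGM3 0.0661, SBSN 0.15 and PPL 0.0299. Leaving out 1 library gave IVL -0.22 to 0.41, TGM1 -0.58 to 0.39, TGM3 -0.86 to 0.50, CDSN -0.36 to 0.49, SBSN -0.43 to 0.38, EVPL -0.14 to 0.10 and PPL -0.18 to 0.10, the highest without gas 1 and the lowest without gas 3.

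The count of members with an adjusted p under 0.05, 0 by edgeR, was 1 with DESeq2, 1 with voom and 0 to 1 when a library was left out, 1 without gas 3. That of cornification genes, 0 by edgeR, was 2 with DESeq2, 13 with voom and 0 to 5 when a library was left out, 5 without gas 3. Under the rule of 2-fold with p under 0.05 before adjustment, members went from 1 to 0 and cornification genes from 1 to 0 with the log2 of FPKM plus 1, which shrinks differences at low FPKM. The second count was 0 to 2 when a library was left out. Over all genes tested, 0 passed by edgeR, 163 by DESeq2, 8944 by voom and 4953 without gas 3.

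Same-numbered gas and dCAMP libraries deviated together at r of 0.218, 0.051 and 0.0855, and differently numbered ones at -0.237 to 0.147. These values do not settle whether the numbers pair the samples, which the study does not state. The replicate block was therefore kept as an alternative. It lowered the standard error of TGM1 from 0.45 to 0.29, of IVL from 0.30 to 0.23 and of SBSN from 0.40 to 0.30. Those of CASP14 (0.28 to 0.33) and POF1B (0.27 to 0.28) rose. With the replicate block 0 members passed an adjusted p of 0.05, POF1B was at 1.87 (adjusted p = 0.256) and 435 genes met the 2-fold rule, against 161 without it.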
